A study of Caenorhabditis elegans with 2 samples.

Results

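The genes for the subunits of the DREAM complex were examined in a chromatin immunoprecipitation and sequencing (ChIP-seq) map of LIN-13 in Caenorhabditis elegans. The members, lin-9, lin-35, lin-37, lin-52, lin-53, lin-54, efl-1 and dpl-1, were chosen by name as the 8 subunit genes, out of 19973 protein-coding genes on the nuclear chromosomes, and all 8 were found in the annotation. The material was whole L2 larvae of mixed sex from strain OP49, which carries the unc119(ed3) allele and the integrated transgene wgIs49, lin-13 tagged with TY1, EGFP and FLAG beside an unc119 marker. There was 1 group with 2 biological replicates. No untagged group is part of the design, and the named control experiment was not analysed here. The labels describe the ChIP as against eGFP-lin-13 and enter lin-13 in the antibody field. Copies of the transgene cannot be told apart from the endogenous lin-13 gene in these lists. Because whole larvae were used, binding in fewer cells and weaker binding per cell cannot be told apart.

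DREAM is a repressor complex that is conserved between worms and mammals. It joins a Retinoblastoma-like pocket protein, an E2F and DP pair of DNA-binding proteins, and the MuvB core. In C. elegans the pocket protein is LIN-35, the E2F is EFL-1 and the DP partner is DPL-1. The MuvB core is formed by LIN-9, LIN-37, LIN-52, LIN-53 and LIN-54. The complex is known for holding cell cycle genes off in resting cells and germline genes off in somatic cells. Its genes belong with lin-13 to the synMuv B class, named for the multiple vulvae that form when a class B and a class A gene are lost together.

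The deposited data are lists of entries, each an interval with a summit and a signal value, for replicate 1, replicate 2 and the pooled replicates. The 3 lists hold 30000 entries each, weak background entries included. The remaining list holds the 3040 entries kept after the irreproducible discovery rate step, here called thresholded, and these are the 3040 strongest entries of the pooled list. No source used here states the scale of the signal, so each entry is described by its rank in its list, with 1 the strongest. The lists carry no read counts and the depth is unknown. A promoter entry of a gene is one whose summit lies between 1000 bp upstream and 200 bp downstream of the outermost annotated start.

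LIN-13 entries passed the threshold in the promoter windows of 7 of the 8 DREAM genes, all but lin-37. These windows are set by annotated starts. That is 87.5% of the members. The exact Clopper-Pearson 95% interval, 47.3 to 99.7, treats the 8 genes as independent random draws. They are a fixed set chosen by name, so it measures no error of these calls and makes no comparison with other genes. The share over all nuclear protein-coding genes was 11.6% (2312 of 19973). The members fell into a strong and a weak set with no values between them. The promoter entries of lin-54, lin-9, lin-53, efl-1 and lin-35 held pooled ranks 46 to 257. Those of lin-52 and dpl-1 held ranks 2706 and 2785, close to the end of the thresholded list. The lin-37 promoter window held only a background entry, at rank 20996 of the pooled list. No test was made over these genes, which were chosen with earlier results of these data known.

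**Figure D1:**
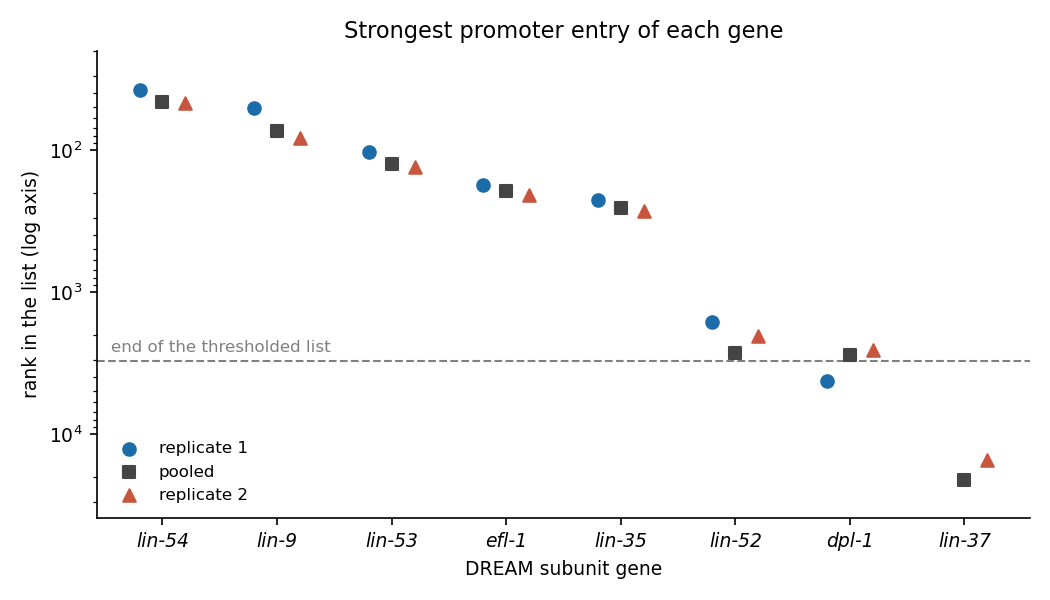
The rank of the strongest promoter entry of each DREAM gene is plotted on a log axis, strongest at the top, for replicate 1 (circles), the pooled list (squares) and replicate 2 (triangles), with the dashed line at rank 3040, where the thresholded list ends. From lin-54 to lin-35 all 3 symbols of a gene lie between ranks 38 and 271, whereas lin-52 and dpl-1 lie near the line and lin-37 lies far under it, with no entry in replicate 1.

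The gene for the DNA-binding subunit of MuvB carried the strongest entry. LIN-54 contacts DNA through a pair of cysteine-rich domains. Its promoter entry lay at IV:13240549-13240828 on ce11 and its ranks were 38 and 47 in replicates 1 and 2 and 46 after pooling. Only 1.3% of the 2312 genes with a thresholded promoter summit had one of this rank or stronger. The summit lay 357 bp upstream of lin-54 (WBGene00003037, IV:13241044-13243401, plus strand). It lay closer to another gene, 36 bp upstream of rpl-12, which encodes a large-subunit ribosomal protein and runs the other way. The starts of lin-54 and rpl-12 are 393 bp apart, and the lists cannot assign the entry to either promoter.

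The scaffold subunit gene lin-9 (WBGene00002998, III:8900237-8904131, minus strand) came next. LIN-9 is a core MuvB protein shared by worm, fly and mammalian complexes. Its entry at III:8904157-8904388 had rank 73 after pooling, with 51 in replicate 1 and 83 in replicate 2. The summit lay 147 bp upstream of the start and in no other promoter window. Of the 5 strong members, lin-9 was the only one whose entry was not shared with a neighbour's window.

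Beyond lin-54 and lin-9 the strong set held the E2F gene efl-1 (WBGene00001161, V:16958590-16965675, minus strand), whose product pairs with DPL-1 to bind DNA. Its entry at V:16965747-16965923 stood at ranks 177 and 208 in the replicates and at 194 in the pool. The summit lay 179 bp upstream of efl-1 and 960 bp upstream of the divergent gene fbxa-90. It was therefore much nearer to efl-1, although both windows hold it.

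The weak set of thresholded entries held a gene of the MuvB core and the DP gene. LIN-52 is the small MuvB subunit that links the core to the pocket protein. The lin-52 gene (WBGene00003035, III:9824083-9824750, minus strand) had its entry at III:9824610-9824959, with the summit 35 bp upstream of the start. Its rank was 1633 in replicate 1 and 2059 in replicate 2 but 2706 in the pooled list, so that it stood higher in each replicate than in the pool. The replicate summits lay 150 bp apart, 59 bp upstream of the start in replicate 1 and 91 bp downstream of it, in a coding exon of lin-52, in replicate 2.

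DPL-1 is the dimerization partner of EFL-1. Its gene (WBGene00001061, II:9169910-9172565, plus strand) had an entry at II:9169494-9169843, with the summit 241 bp upstream of the start. Replicate 1 placed it at rank 4214, replicate 2 at 2581 and the pool at 2785. It was the only thresholded member entry outside the 3040 strongest of a replicate. The start of dpl-1 lies inside T23G7.2, a gene on the other strand, and the summit fell on an exon of a non-coding transcript of T23G7.2.

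Sequences around these 5 summits are shown because they carry the letters that LIN-54 and E2F proteins are known to bind, or lack them. Each runs 5′ to 3′ on the strand of the member gene and covers 75 bp on either side of the pooled summit, read from the WBcel235 reference (ce11). For lin-54 only the 111 bases outside the transcribed part of rpl-12 are given. The lin-52 window is given whole and runs past the lin-52 start at III:9824750, so it ends in 7 UTR bases and coding bases of lin-52. Capitals mark matches on either strand to TTTGAA or TTCGAA, letters of the cell cycle genes homology region (CHR) bound by LIN-54 family proteins, or to TTCCCGC or TTCGCGC or the similar word TTGGCGC, letters of E2F sites. They lie at III:8904203-8904353 for lin-9, IV:13240652-13240762 for lin-54, V:16965779-16965929 for efl-1, III:9824710-9824860 for lin-52 and II:9169594-9169744 for dpl-1.
lin-9: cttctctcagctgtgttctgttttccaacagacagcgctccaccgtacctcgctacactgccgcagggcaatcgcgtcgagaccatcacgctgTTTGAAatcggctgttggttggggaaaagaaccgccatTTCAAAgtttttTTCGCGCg
lin-54: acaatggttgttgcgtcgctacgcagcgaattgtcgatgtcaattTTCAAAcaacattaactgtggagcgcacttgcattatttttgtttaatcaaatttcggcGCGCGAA
efl-1: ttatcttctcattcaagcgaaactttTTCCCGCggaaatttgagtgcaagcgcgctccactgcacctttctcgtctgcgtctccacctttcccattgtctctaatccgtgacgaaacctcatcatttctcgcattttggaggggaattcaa
lin-52: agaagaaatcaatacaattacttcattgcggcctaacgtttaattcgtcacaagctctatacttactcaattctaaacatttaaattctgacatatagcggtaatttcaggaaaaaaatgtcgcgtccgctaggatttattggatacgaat
dpl-1: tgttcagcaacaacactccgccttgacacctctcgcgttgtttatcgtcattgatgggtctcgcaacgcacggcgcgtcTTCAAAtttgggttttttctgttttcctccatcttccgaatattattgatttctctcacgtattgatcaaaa

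The CHR letters TTTGAA were present in the windows of 5 members, lin-9, lin-37, lin-53, lin-54 and dpl-1. In dpl-1 the match began 4 bp and in lin-54 10 bp downstream of the summit, and lin-9 and lin-53 had a pair of matches each. This 6-base word is common: it occurred in 31.8% of the 1727 windows at thresholded promoter summits and in 40.7% of windows of the same length centred 150 bp upstream of every protein-coding start. TTCGAA occurred in 1 member window, that of lin-37, against 12.6% of promoter summit windows and 9.94% of start windows. The lin-37 window is centred on a background entry, so for either word it is unlike the 1727 windows at thresholded summits.

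E2F letters occurred in 3 members, all in the strong set. The efl-1 window held TTCCCGC from position -49 relative to its summit. The lin-9 and lin-54 windows held TTCGCGC in their outermost bases, 68 and 69 bp downstream of the summits, and lin-54 also held TTGGCGC upstream of its summit in bases not shown. Any of the 3 E2F words occurred in 14.2% of promoter summit windows and 4.07% of start windows. The median GC content of these windows was 43.0% and 33.8%, and the part of base composition or rank in the matches was not tested. The windows of lin-35 and lin-52 held none of the 5 words. No matches of different words overlapped in a member window. A match is a description of these letters, and a window without one says nothing of the proteins.

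Base composition also differed among the members. GC content was 53.0% in the lin-9 window, 50.3% in that of lin-53, 47.0% in those of lin-54 and efl-1, 43.7% at dpl-1, 39.7% at lin-35, 33.8% at lin-52 and 23.2% at lin-37. The median was 43.0% over promoter summit windows (quartiles 37.7 and 48.3) and 33.8% over the start windows. The lin-37 window, which is centred on a background entry, thus lay under the lower quartile of both. Of the 5 strong members, 4 lay above the median of promoter summits and lin-35 lay below it. The weak member dpl-1 also lay above that median. The part of base composition in the ranks was not tested.

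LIN-53 is the histone-binding WD40 protein of the complex, related to mammalian RbAp48 and shared with other chromatin complexes. The lin-53 gene (WBGene00003036, I:9618196-9619760, minus strand) had its entry at I:9619881-9620101, with rank 126 after pooling, 103 in replicate 1 and 131 in replicate 2. The summit lay 243 bp upstream of lin-53 and 224 bp upstream of nra-2, which runs the other way from a start 467 bp off. The closely related gene rba-1 begins downstream of lin-53 on the same strand, 88 bp past its end. No pooled entry was listed inside lin-53, and the nearest one downstream, at the promoter of K07A1.10, ranked 7571.

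The pocket protein gene lin-35 (WBGene00003020, I:5807709-5815637, plus strand) encodes the only Retinoblastoma family member of the worm. Its entry at I:5807438-5807612 took rank 225 in replicate 1 and 271 in replicate 2, and 257 when pooled. The summit lay 194 bp upstream of lin-35 and 224 bp upstream of vps-51, whose start is 418 bp away on the other strand. Inside the gene body the pooled list held only background entries, at ranks 11113 to 26019.

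LIN-37 is a core MuvB protein known for its part in repression. The lin-37 gene (WBGene00003022, III:7070890-7072552, minus strand) had a promoter entry at III:7072576-7072925 in the pooled list, rank 20996. Replicate 2 listed one at rank 15363, and replicate 1 listed none in the window. The deposited −log10 q value of the pooled entry was 0.203, against 2.79 to 2.99 for the thresholded entries of the other members. Its summit fell in the 3′ UTR of ZK418.5, which ends 60 bp upstream of lin-37 on the same strand.

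A thresholded entry did lie farther up, in front of ZK418.5 itself. Its summit was 1598 bp upstream of the lin-37 start and 299 bp upstream of that of ZK418.5. Its pooled rank was 1677, with 1282 in replicate 1 and 2904 in replicate 2. The lists cannot assign this entry to ZK418.5 or to lin-37. A window of 2000 bp upstream to 500 bp downstream therefore counted all 8 members, while 14.9% of all genes were counted with it.

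**Figure D2:**
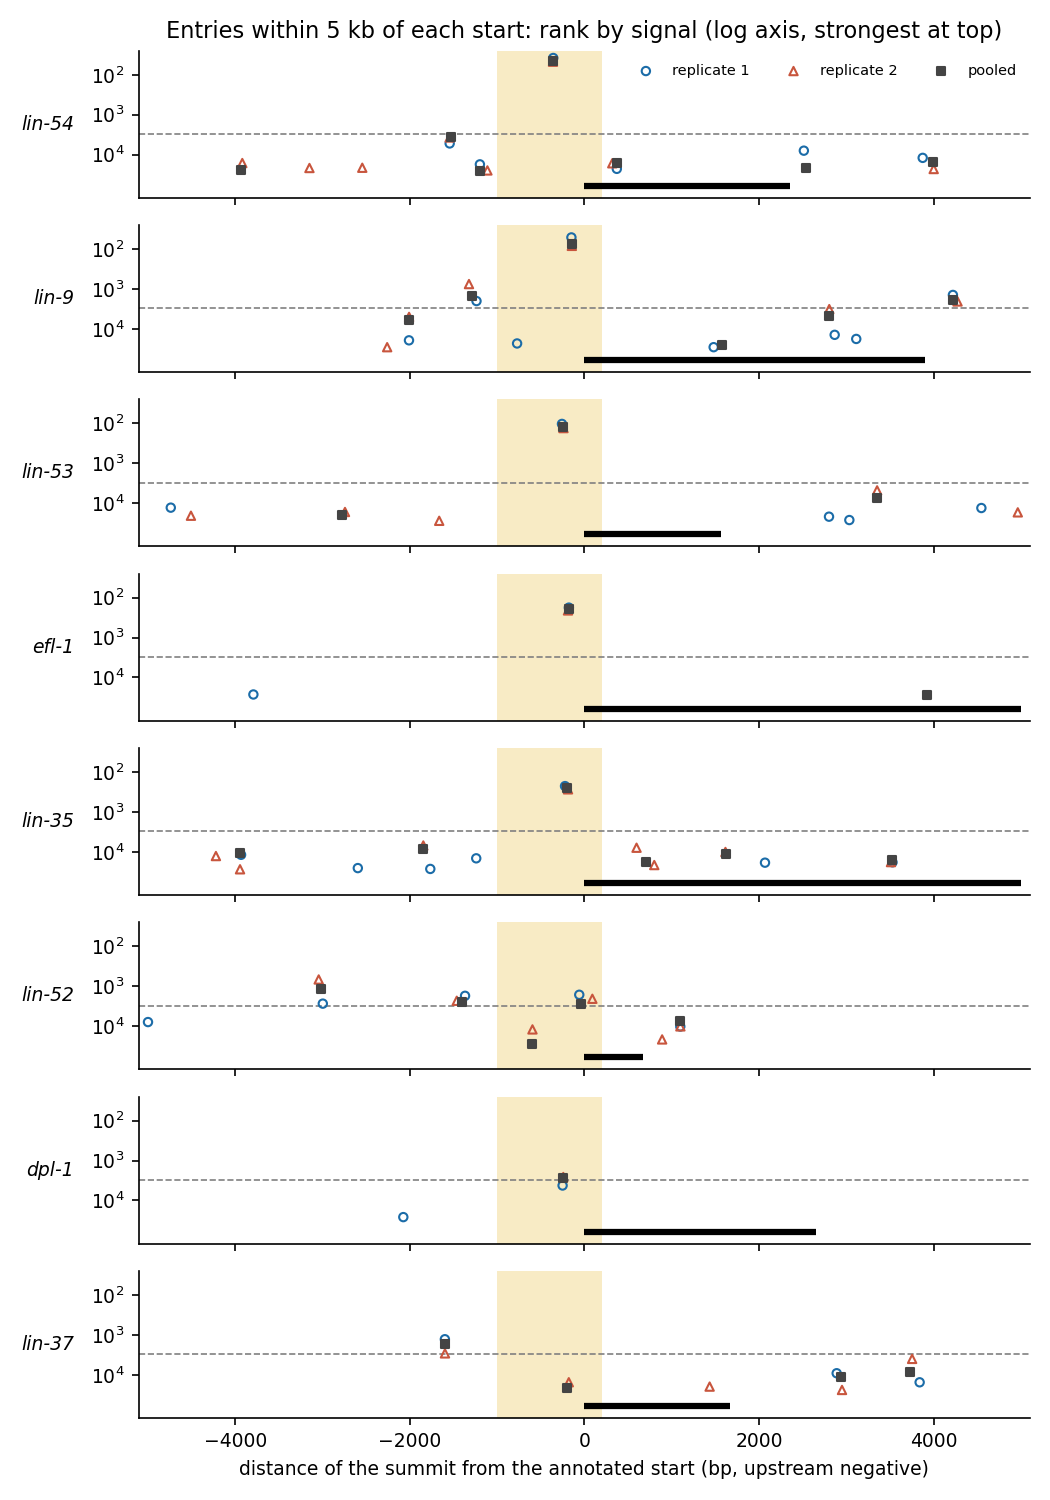
Entries within 5 kb of each start are placed by the distance of their summit from the start in bp, negative upstream, against their rank on a log axis with the strongest at the top; circles are replicate 1, triangles replicate 2 and filled squares the pooled list. Shading marks the promoter window, the black bar the gene (cut at 5 kb) and the dashed line rank 3040. Each strong member shows 1 entry far above the line, in the window, the thresholded promoter entries of lin-52 and dpl-1 lie just above the line, and the thresholded entries outside the windows lie at lin-9, lin-52 and lin-37.

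Within 5 kb of the 8 starts the thresholded list held 12 entries, 7 of them in the members' promoter windows and 5 outside. The 5 were near 3 members. At lin-9, 1 entry (pooled rank 1474) had its summit 191 bp upstream of unc-32, which encodes a proton pump subunit, and another (rank 1872) lay in intergenic sequence 4219 bp downstream of the lin-9 start. At lin-52, 1 entry (rank 2491) lay 721 bp upstream of ZK632.9 and another (rank 1196) 50 bp upstream of ZK632.10. The remaining one was the entry in front of ZK418.5. At lin-52 both outside entries ranked above the member's own promoter entry, and at lin-9 both ranked below it.

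The pooled list held 34 entries in the same distance, of which 25 lay outside the promoter windows. The replicate lists held 38 and 41, a difference that says nothing of depth because each list was filled to the same length. Counts ran from 1 at dpl-1 to 7 at lin-54. The lin-9 intron held an entry of pooled rank 4871, which ranked 3202 in replicate 2 and 14144 in replicate 1. For efl-1 only 1 pooled entry lay within 5 kb besides that of the promoter, in an intron at rank 27987.

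The replicate lists were then read on their own. Among the 3040 strongest entries of replicate 1, 6 of 8 members had a promoter summit, against 11.5% of all genes. In replicate 2 there were 7 of 8, against 11.3%. In both there were 6 of 8, against 9.22% of all genes, and dpl-1 and lin-37 were the members left out. Any pooled entry at the promoter was found for 8 of 8 members, against 36.3% of all genes. The rank in replicate 2 divided by that in replicate 1 was 1.18 for efl-1, 1.2 for lin-35, 1.24 for lin-54, 1.26 for lin-52, 1.27 for lin-53, 1.63 for lin-9 and 0.612 for dpl-1. Over the 2278 genes with a thresholded promoter summit and an entry in both replicates the median was 0.974, with quartiles of 0.658 and 1.40. The members other than lin-9 and dpl-1 lay inside those quartiles.

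Summit positions differed little between replicates at most members. The replicate summits lay 3 bp apart at lin-54, 5 at lin-9, 8 at dpl-1, 10 at efl-1, 17 at lin-53, 34 at lin-35 and 150 at lin-52. The median over those 2278 genes was 17.0 bp, with quartiles of 7.0 and 37.0. Only lin-52 lay outside the upper quartile. The position at dpl-1 was thus as close as at the strong members although its ranks were low.

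**Figure D3:**
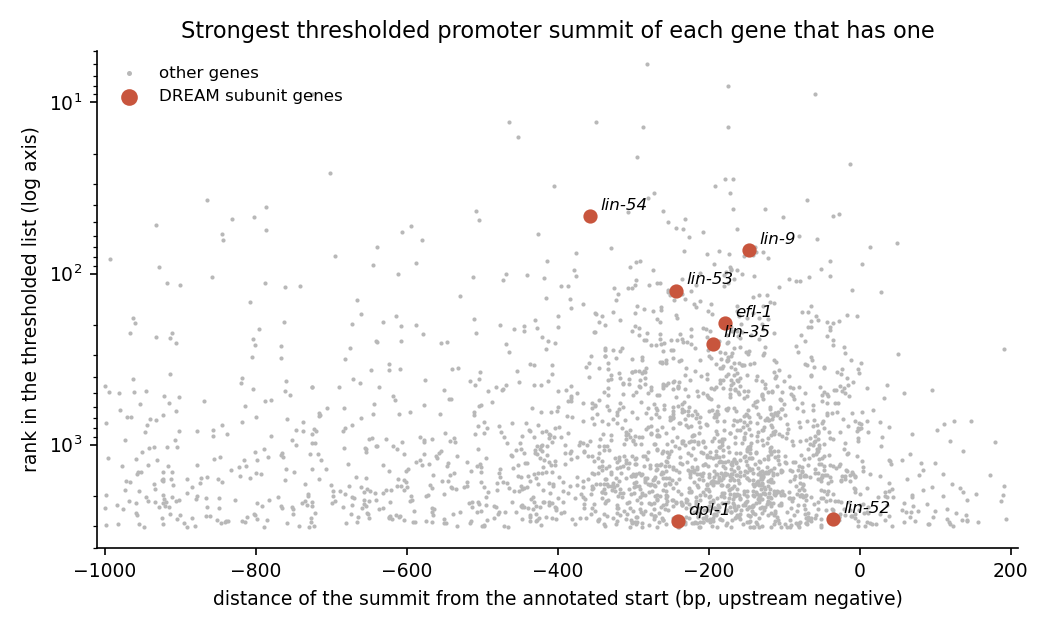
Each point is the strongest thresholded promoter summit of a gene, by its distance from the annotated start in bp (negative upstream) and its rank on a log axis, strongest at the top; large points are the 7 DREAM genes that have one and small points the other genes. The members lie 35 to 357 bp upstream, 5 of them between ranks 46 and 257 and lin-52 and dpl-1 at the bottom edge.

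Distances from the start were ordinary for the list. The 7 member summits lay 35 to 357 bp upstream, with a median of 194.0 bp. The median over the 2312 genes with a thresholded promoter summit was 236.0 bp, with quartiles of 131.0 and 414.2. The median rank of those genes was 1240, with quartiles of 542.8 and 1979, so the 5 strong members all ranked above the upper quartile and lin-52 and dpl-1 below the lower one. The shares of the 2312 genes at the same rank or stronger were 1.3% for lin-54, 2.47% for lin-9, 5.58% for lin-53, 8.78% for efl-1, 12.2% for lin-35, 92.9% for lin-52 and 94.7% for dpl-1.

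Interval widths separated the members in the same way. The strong entries were 280 bp wide at lin-54, 232 at lin-9, 221 at lin-53, 177 at efl-1 and 175 at lin-35, and those of lin-52, dpl-1 and lin-37 were all 350 bp. That width is the most common one in the thresholded list, held by 2501 entries (82.3%). Intervals narrower than that made up 32.6% of the stronger 1520 entries and 0.395% of the weaker 1520. Narrow intervals thus lay almost only among the stronger entries, and the split in width is no independent feature of these genes. Within the strong set the order was the other way, with the stronger entries wider.

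The arrangement of neighbouring genes differed between the sets. Each strong member has its nearest upstream gene on the opposite strand, namely unc-32 beside lin-9 and the genes already named beside the other strong members. The gene upstream of lin-52, ZK632.9, lies on the same strand 126 bp away, as does ZK418.5 for lin-37 at 60 bp, and dpl-1 starts inside T23G7.2. Over all genes a thresholded promoter summit was found for 17.7% of 8420 with an opposite-strand gene upstream, 7.04% of 10157 with a same-strand gene upstream and 7.48% of 1391 whose start lies inside another gene. The median rank of those summits was 1161, 1436 and 1301. These classes were drawn after the members' values were seen and were not tested.

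Sharing of the entry with the promoter window of another gene was described next. It applied to 4 of the 7 thresholded members (57.1%), and to 1236 of the 2312 genes with a thresholded promoter summit (53.5%). When each summit was given to the nearest start only, lin-53 went to nra-2 and lin-54 to rpl-12. Then 5 members kept a thresholded promoter summit, against 8.44% of all genes.

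Other genes of the pathway were read in the same way. Among regulators of the Retinoblastoma and E2F pathway, 2 of 9 had a thresholded promoter summit. They were the cyclin E gene cye-1 (pooled rank 934, shared with pqn-21) and the cyclin-dependent kinase gene cdk-4 (rank 2684, shared with F18H3.1). The cye-1 summit lay nearer to pqn-21 (-71 bp from its start, against -577 bp for cye-1). The cdk-4 summit lay nearer to F18H3.1 (-327 bp, against -425 bp for cdk-4), and its rank in replicate 2 was 3936. The other E2F genes, efl-2 and efl-3, had none, and efl-2 had a background entry at rank 28285. Among other synMuv B and NuRD-related genes there were 3 of 12, the tagged gene lin-13 (rank 41), lin-36 (rank 466) and mep-1 (rank 851), which encodes a zinc-finger partner of the LET-418 complex. The tagged locus may include transgene copies, so neither its rank nor its place in the 3 of 12 is comparable with the others. The gene lin-15B had a promoter entry at rank 1673 in replicate 1 but none in replicate 2 or the pooled list.

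Cell cycle genes of the kind that DREAM controls had a thresholded promoter summit at 5 of 15. Among them were the sliding clamp gene pcn-1 (pooled rank 327) and the helicase subunit genes mcm-4 (rank 472) and mcm-7 (rank 1626, shared with figl-1 and hpo-18). The others were the cyclin B gene cyb-3 (rank 2200, shared with T06E6.1) and the mitotic kinase gene cdk-1 (rank 3031, shared with iff-1). The cyb-3 summit lay nearer to T06E6.1 (-217 bp, against -518 bp for cyb-3). Replicate 2 listed no promoter entry for mcm-7 and placed that of cdk-1 at rank 4991. In contrast, cyb-1 (rank 886 in replicate 1) and mcm-2 (rank 876 in replicate 2) had a promoter entry in that replicate but none in the pooled list. The germline list, genes such as pgl-1 and glh-1 that encode germ granule proteins, had 0 of 6, and its only pooled promoter entry was that of pie-1 at rank 25469. The strongest of these genes other than lin-13, pcn-1, ranked below all 5 strong DREAM genes. The 11.6% of all genes stands beside each of these counts, and the differences between lists were not tested.

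**Figure D4:**
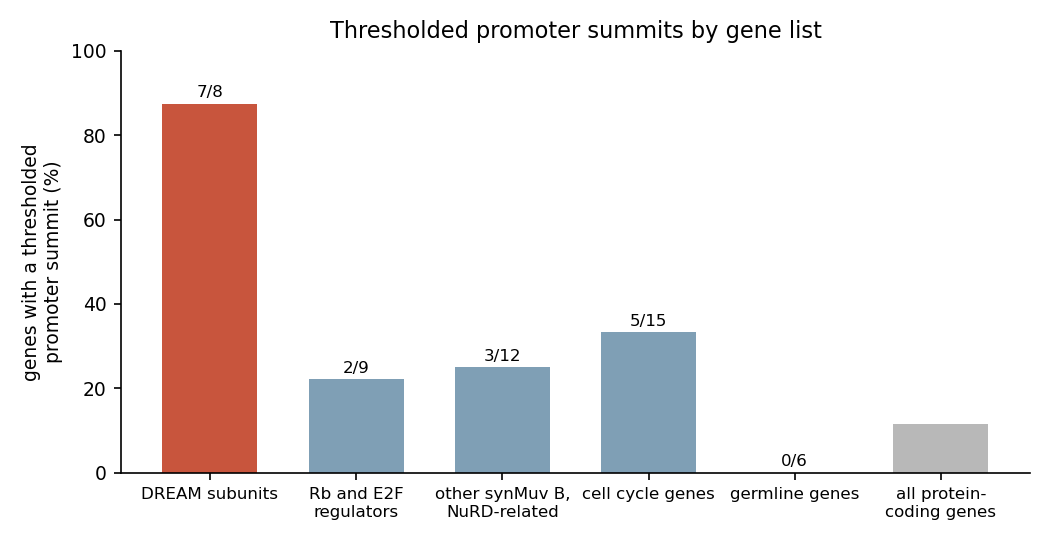
Bars give the percent of genes with a thresholded promoter summit, from 0, for the 8 DREAM genes, the 4 lists of related genes and all 19973 nuclear protein-coding genes, with counts above the bars. The DREAM genes stand at 87.5%, the lists between 0 and 33.3% and all genes at 11.6%. The bar of other synMuv B and NuRD-related genes (3 of 12) counts the tagged gene lin-13.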

How the data were processed

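Peak lists on ce11 from 2 biological replicates and from their pool were used, with the thresholded list derived from those 3. Each list was derived from alignments and a control, per the listing deposited by the authors. No source used here names the aligner, the peak caller or the threshold on the irreproducible discovery rate. The deposited signal value per entry has no stated scale and served only to rank entries within a list. The deposited −log10 q value per entry was used only to describe entries. Fragments were 150 to 350 bp long per the labels. The lists hold no counts, so the depth is unknown. The interval on the share of members treats them as independent random draws, which they are not. Lists on ce10 were not used.

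Coordinates are 1-based. Gene models were Ensembl release 115 on WBcel235, which has the chromosomes of ce11, and 0 entries ran past a chromosome end. The outermost annotated start of each gene was used. A summit in several promoter windows was counted for each gene. Motifs were searched on both strands in windows of 75 bp on either side of the summit. Classification of entries under a summit used annotated exons, coding segments and UTRs, and a gene span outside exons was called intron.

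The members and lists were chosen with earlier results of these data known, so no test over them was made. Genes named are all members, genes sharing the window of a member's strongest entry, neighbours of lin-37 and up to 4 listed genes with the best ranks per list. In addition cdk-1, cyb-1, mcm-2, efl-2, efl-3, lin-15B, pie-1, pgl-1, glh-1 and neighbours of other members are named after their values were seen. Promoter assignment and motif search were first tested on simulated data. Alternatives were other windows, all transcript starts, interval overlap, the stronger 1520 entries, the nearest start, each replicate's own 3040 strongest entries, other locus distances and other motif windows. Python 3.11.15, numpy 2.4.6, pandas 2.3.3, scipy 1.17.1 and matplotlib 3.10.9 were used.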

Additional observations from a re-analysis of the deposited data

How the results depend on the processing

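The count of 7 of 8 DREAM genes with a thresholded promoter summit was 7 when the window was narrowed to 500 and 100 bp, with any transcript start and with interval overlap, and 8 when the window was widened to 2000 and 500 bp. It was 5 with the stronger 1520 entries, without lin-52 and dpl-1, and the share of all genes was then 6.97%. Leaving out each replicate gave 6 to 7 members and 11.3 to 11.5% of all genes, and the member lost without replicate 2 was dpl-1. The lin-52 summit, at -35 bp relative to the start, lay at 91 bp without replicate 1 and at -59 bp without replicate 2. Pooled ranks changed with the window only for lin-37 (1677 in the widest window) and lin-52 (2491 there). Matches to TTCGCGC and TTGGCGC fell to 0 members within 50 bp of the summit, where TTTGAA was held by 4. No paired analysis was possible because there is 1 group and no test. Without read counts, weak and absent binding at lin-37 cannot be told apart.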

Other observations

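The windows of 75 bp on either side of the members' summits were also searched for shared words of 8 bases on either strand, a step chosen after the values were seen and not tested. Of 1090 distinct words, 3 occurred in 3 members and none in more. The word GCGCTCCA, with the overlapping word CGCTCCAC, was found in lin-9, lin-54 and efl-1, where it can be read in the printed sequences (as TGGAGCGC in lin-54). GCGCTCCA occurred in 6.77% of the 1727 windows at thresholded promoter summits and in 0.756% of windows upstream of all protein-coding starts. Along the nuclear thresholded list it occurred in 6.63% of the strongest 603 summits (40 of them) and in 1.66% of the weakest of 5 such groups. The groups between held 3.98%, 5.64% and 4.15% in order of rank, so the share did not fall steadily. The summits of lin-9, lin-54 and efl-1, from which the word was taken, are themselves in the strongest group. The word AAATTTGA, in lin-54, efl-1 and dpl-1, occurred in 4.52% of promoter summit windows and 6.52% of start windows.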
